A study of Mus musculus with 6 samples.

Results

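The clearance of triglyceride from blood lipoproteins by lipoprotein lipase was examined in the livers of fasted Mig-6 d/d and Mig-6 f/f mice. The genes were chosen as a named set: the lipases Lpl, Lipc and Lipg, the apolipoproteins Apoc2, Apoc3 and Apoa5 that turn lipoprotein lipase up or down, its inhibitor Angptl4, its capillary anchor Gpihbp1 and its maturation factor Lmf1. All probe sets annotated with exactly 1 of these symbols were taken. Of the 9 genes, 8 had such a probe set, 13 probe sets in all, among 18193 genes so named on the array; Lipc, hepatic lipase, was not analysed here. The set was drawn up with the d/d against f/f differences of these same 6 arrays known, in particular that of Lpl, so the differences of its genes are a description. Where a count of calls includes them, it supports nothing about the set.

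Total RNA of whole liver was hybridized to Affymetrix mouse expression arrays, 3 from Mig-6 d/d and 3 from Mig-6 f/f mice. All animals were males of 8 weeks on a mixed background, kept on standard chow and fasted for 24 h, so the fast is shared by both genotypes and no fed group is part of the comparison. Errfi1 encodes Mig-6, which binds the activated EGF receptor and dampens its signal. The sources used here give neither the driver of the deletion, nor the cells it acted in, nor the part of the gene removed. Whether arrays of a genotype come from separate animals is not stated either, so the spread that p-values rest on is that of arrays and may be partly technical.

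Lipoprotein lipase splits the triglyceride of chylomicrons and very low density lipoproteins at the capillary wall and releases fatty acids to the tissue behind it. It is made mainly by fat, heart and skeletal muscle, and adult hepatocytes are known for making little of it. The liver supplies its regulators instead: it secretes apolipoprotein C-II, which the enzyme needs, apolipoprotein C-III, which inhibits it, and apolipoprotein A-V, which favours it, and on fasting it makes angiopoietin-like 4, which inactivates it. Bulk liver RNA does not separate fewer cells of a type from less RNA per cell.

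One f/f array, replicate 3, was unlike the rest. The 3 control probe sets for 18S rRNA averaged an intensity of 3807 there, against 218 to 455 elsewhere. Its mean correlation with the remaining arrays was 0.963, where theirs were 0.978 to 0.981, and its median intensity was 65.4, where theirs were 55.6 to 60.9. Differences without it are therefore given for every gene of the set. Errfi1 read 68.0, 61.8 and 59.6 in d/d livers, against 5371, 5424 and 5686 in f/f livers, which separates the arrays as their genotype labels do; where its probes lie relative to the deleted part is not known here. Alb, albumin, the most abundant hepatocyte marker, averaged an intensity of 35387 ± 612 in d/d and 33895 ± 228 in f/f livers (SD, n = 3 each).

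Sequence is shown for the pair of regulators that differed in opposite directions without overlap between the groups and had an entry among the RefSeq promoters used here (GRCm38.p6). Entries were found for 4 of the 9 genes, Apoc2, Apoa5, Lipc and Lmf1. The 250 bases before the annotated start of Apoc2 lie at chr7:19677942-19678191 on the minus strand, and those of Apoa5 at chr9:46268358-46268607 on the plus strand, the first of its 2 entries. Capitals mark exact matches on either strand to AGGTCA and GGGTCA, half-sites of nuclear receptors, CACGTG, the E-box read by factors such as ChREBP and USF, and TATAAA, the TATA box. These motifs were picked after the sequences had been read.
Apoc2: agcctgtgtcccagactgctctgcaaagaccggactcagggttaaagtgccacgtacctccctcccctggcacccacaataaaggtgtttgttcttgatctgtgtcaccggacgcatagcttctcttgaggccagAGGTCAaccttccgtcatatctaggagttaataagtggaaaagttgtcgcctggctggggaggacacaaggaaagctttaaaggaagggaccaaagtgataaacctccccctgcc
Apoa5: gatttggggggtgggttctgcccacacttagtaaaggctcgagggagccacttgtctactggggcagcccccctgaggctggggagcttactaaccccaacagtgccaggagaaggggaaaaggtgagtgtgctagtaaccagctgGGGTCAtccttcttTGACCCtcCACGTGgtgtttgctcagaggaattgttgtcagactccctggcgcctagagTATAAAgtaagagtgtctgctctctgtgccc

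The Apoc2 window held 1 AGGTCA, starting 115 bases before the gene's start, and none of the other 3 motifs. The Apoa5 window held GGGTCA at 104 bases before the start and again, on the other strand, at 90, then CACGTG at 82 and TATAAA at 31. Among 32851 promoter windows of this length, AGGTCA was present in 14%, GGGTCA in 11.6%, CACGTG in 6.02% and TATAAA in 12.4%, and no motif overlapped another in these windows. A match describes the letters and is not a measured binding site.

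Lpl, the lipase itself, was about 4 times higher in d/d livers. Its main probe set read 1184, 861 and 899 in d/d livers, against 206, 298 and 180.2 in f/f livers. Every d/d array was well above every f/f array, and the lowest d/d reading was more than double the highest f/f one. The group means were 981 ± 177 in d/d and 228 ± 61.8 in f/f (SD, n = 3 each). On the log2(intensity + 16) scale used for all differences here, d/d minus f/f was 2.07 ± 0.20 (standard error of limma), a 4.19-fold difference on that scale, and 1.90 without f/f replicate 3.

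The other Lpl probe set showed the same separation at lower brightness. It read 419, 287 and 333 in d/d livers, against 73.9, 136 and 76.5 in f/f livers, with means of 346 ± 67.0 in d/d and 95.5 ± 35.3 in f/f (SD, n = 3 each). Its log2 difference was 1.74 ± 0.23, or 3.35-fold. In both probe sets d/d replicate 1 was the highest of all arrays, and f/f replicate 2 was the highest within f/f.

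**Figure D1:**
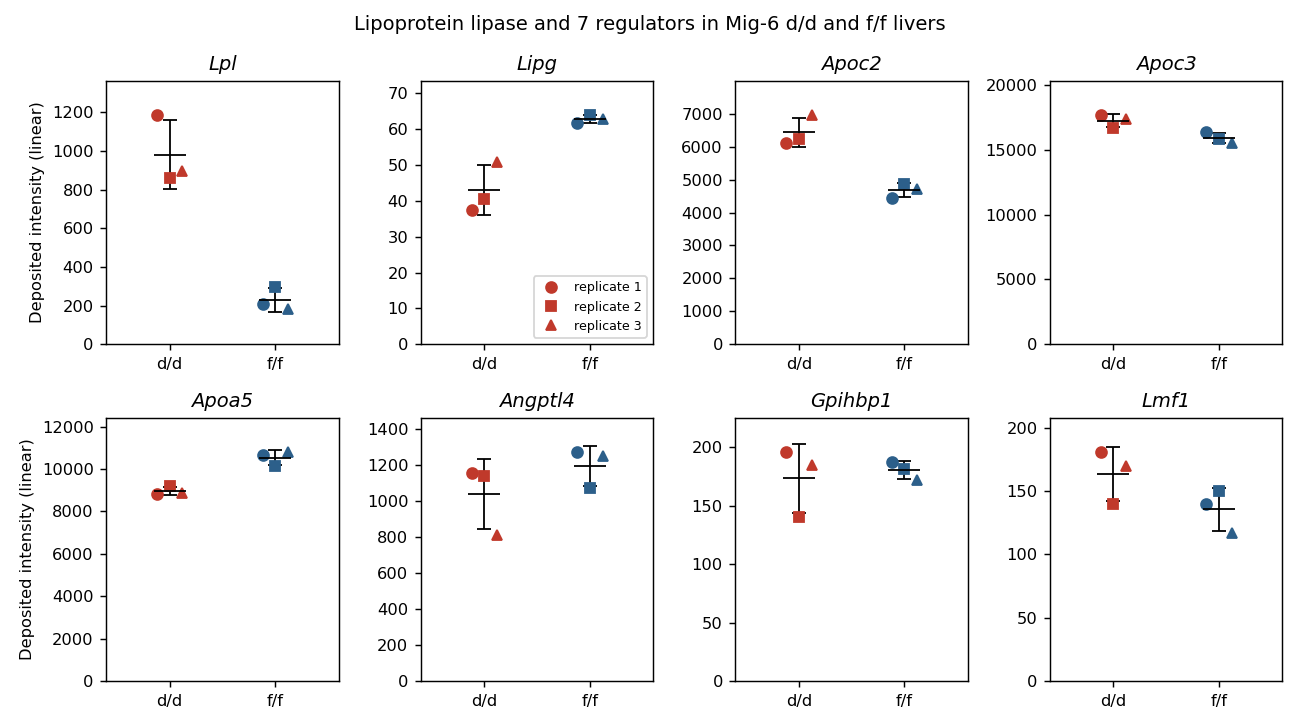
Deposited linear intensity of the main probe set of each gene on each array, d/d left and f/f right, with marker shape giving the replicate number and black bars the mean and SD (n = 3). The 3 d/d arrays sit at 861 to 1184 for Lpl and the 3 f/f arrays at 180.2 to 298, while Angptl4, Gpihbp1 and Lmf1 overlap between groups.

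Of all 13718 genes that passed the filter on dim probe sets, 1 had a higher d/d minus f/f difference than Lpl, and 6, Lpl included, were at least as far from 0 in either direction. Of the 8 genes of the set, Lpl was the 1 that passed (limma, p adjusted over all genes by Benjamini-Hochberg, threshold 0.05), while 0.0948% of all genes did so in either direction, 0.0437% higher and 0.051% lower in d/d. Because the set was chosen on this contrast, the count is a description and no test of Lpl. In smaller sets of arrays Lpl was no longer among the genes called: this was so without f/f replicate 1 (log2 difference 2.03) and without d/d replicate 1, 2 or 3 (1.92, 2.16 and 2.12).

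Lipg, endothelial lipase, which acts mostly on the phospholipid of high density lipoproteins, was dim and its probe sets disagreed. The brightest read 37.5, 40.5 and 50.8 in d/d livers, against 61.8, 63.8 and 63.0 in f/f livers. These values straddle the dim cut, an intensity of 48.3 below which the lowest 40% of probe sets were dropped, and the probe set passed the filter through its f/f readings. The log2 difference was -0.41 ± 0.13, and -0.46 without f/f replicate 3. A second probe set gave -0.40 ± 0.13 and the third 0.11 ± 0.11, and neither was over the dim cut.

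Apoc2 encodes the cofactor without which lipoprotein lipase is nearly inactive. It read 6108, 6238 and 6954 in d/d livers, against 4449.7, 4878 and 4718 in f/f livers. All d/d arrays were above all f/f arrays. The means were 6433 ± 456 in d/d and 4682 ± 216 in f/f (SD, n = 3 each), a log2 difference of 0.51 ± 0.11, or 1.43-fold, and 0.50 without f/f replicate 3. Differences of this size or larger, in either direction, were found for 2.68% of all genes tested.

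Apoc3, which inhibits lipoprotein lipase and slows the uptake of remnants, differed by a smaller step. It read 17667, 16714 and 17373 in d/d livers, against 16369.8, 15828 and 15556 in f/f livers. The lowest d/d array was just above the highest f/f array. The means were 17252 ± 488 in d/d and 15918 ± 414 in f/f (SD, n = 3 each), with a log2 difference of 0.18 ± 0.11, and 0.15 without f/f replicate 3.

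Apoa5, whose product favours lipolysis, ran the other way. It read 8813, 9186 and 8863 in d/d livers, against 10648, 10129 and 10796 in f/f livers, again without overlap. The means were 8954 ± 202 in d/d and 10524 ± 350.2 in f/f (SD, n = 3 each), and the log2 difference was -0.19 ± 0.11, and -0.19 without f/f replicate 3. Differences at least this far from 0 were found for 28.9% of genes for Apoa5 and 31.3% for Apoc3.

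**Figure D2:**
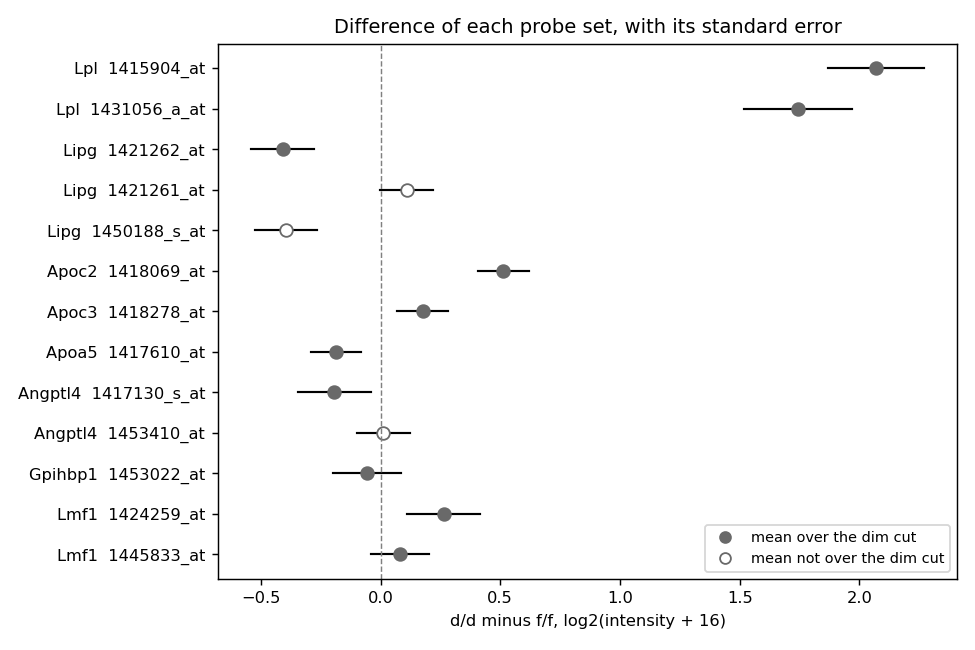
Difference d/d minus f/f of all 13 probe sets on the log2(intensity + 16) scale, with bars of 1 standard error from limma; filled points are probe sets over the dim cut. The 2 Lpl probe sets lie at 2.07 and 1.74, and the other 11 between -0.41 and 0.51.

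Angptl4, the fasting-induced inhibitor that turns lipoprotein lipase into an inactive form, overlapped between the genotypes. Its bright probe set read 1158, 1142 and 815 in d/d livers, against 1273, 1071 and 1249 in f/f livers. The lowest value was that of d/d replicate 3, and the other 2 d/d arrays lay inside the f/f range. The log2 difference was -0.19 ± 0.15, and -0.16 without f/f replicate 3, but -0.03 without d/d replicate 3. The suffix of this probe set marks probes that may match transcripts of more than 1 gene, and the other probe set was dim, with 0.01 ± 0.11.

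Gpihbp1, the protein of capillary endothelium that carries lipoprotein lipase to the vessel lumen, read 196, 140.1 and 185 in d/d livers, against 188, 182 and 172 in f/f livers. Only d/d replicate 2 was below the f/f arrays. The log2 difference was -0.06 ± 0.14, and -0.12 without f/f replicate 3, and it turned to 0.09 without d/d replicate 2.

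Lmf1, a protein of the endoplasmic reticulum that lipases need to fold into active enzymes, read 181, 139.9 and 169.6 in d/d livers, against 139.4, 150.2 and 117 in f/f livers. The groups overlapped, since d/d replicate 2 lay inside the f/f range. The log2 difference was 0.26 ± 0.15, and 0.13 without f/f replicate 3. The second Lmf1 probe set gave 0.08 ± 0.12.

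Counted over the main probe sets, the groups did not overlap for 5 of the 8 genes, 3 higher in d/d (Lpl, Apoc2 and Apoc3) and 2 lower (Lipg and Apoa5). Over all genes tested, groups did not overlap for 14.7%, 7.9% higher and 6.79% lower. Since the set was chosen on this contrast, nothing is read from that comparison.

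**Figure D3:**
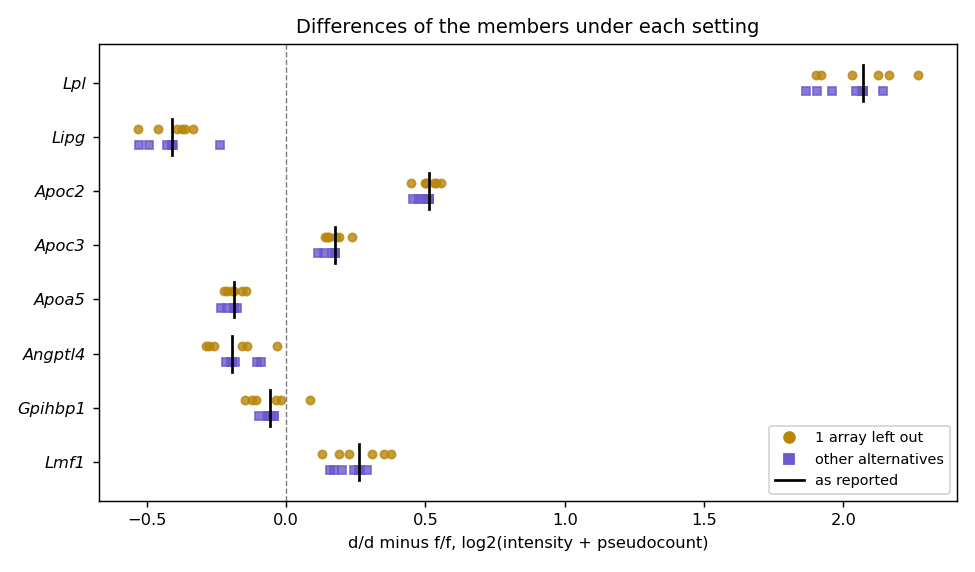
Difference d/d minus f/f of each gene as reported (black line), with 1 array left out (circles) and under the other processing alternatives (squares). Lpl stays between 1.87 and 2.27 and Apoc2 between 0.45 and 0.55, while Gpihbp1 runs from -0.15 to 0.09.

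The genes whose profile over the 6 arrays was most like that of Lpl were Cib3, Abcd2, Itih5, Rgs16 and Gm9706. Likeness was the mean absolute distance between log2 values centred on each gene's mean, which was 0.26, 0.26, 0.34, 0.34 and 0.35, against a median of 1.04 over the 13710 genes outside the set. Abcd2, a fatty acid transporter of peroxisomes, read 174, 196 and 191 in d/d livers, against 60.5, 66.0 and 38.8 in f/f livers. Itih5, of the family of inter-alpha-trypsin inhibitor heavy chains, read 260.4, 294 and 271 in d/d livers, against 102, 119 and 72.6 in f/f livers. Cib3 is a calcium-binding protein and Rgs16 a regulator of G protein signalling, and the probe set of Gm9706, a predicted gene, carries a suffix for probes that may match other transcripts. Being near Lpl in profile means that these genes also separate the genotypes, so their differences, from 1.39 for Itih5 and Gm9706 to 1.89 for Cib3, follow from the way they were picked.

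Around the named regulators, 76 other genes of lipoprotein triglyceride clearance were listed by role, of which 64 were tested and 12 were dim or had no probe set of their own here. None passed: 0 were higher and 0 were lower past that threshold in limma. An unadjusted limma p under 0.05 was found for 10 of the 64, 8 higher and 2 lower in d/d. Over all genes tested it was found for 7.84%, 654 genes higher and 421 lower in d/d. The adjusted p of the 64 ran from 0.203 to 0.991 in limma. The median difference of the list was 0.06 and that of all genes tested was -0.01. Differences were positive for 38 of the 64, and for 6376 of all 13718 genes.

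**Figure D4:**
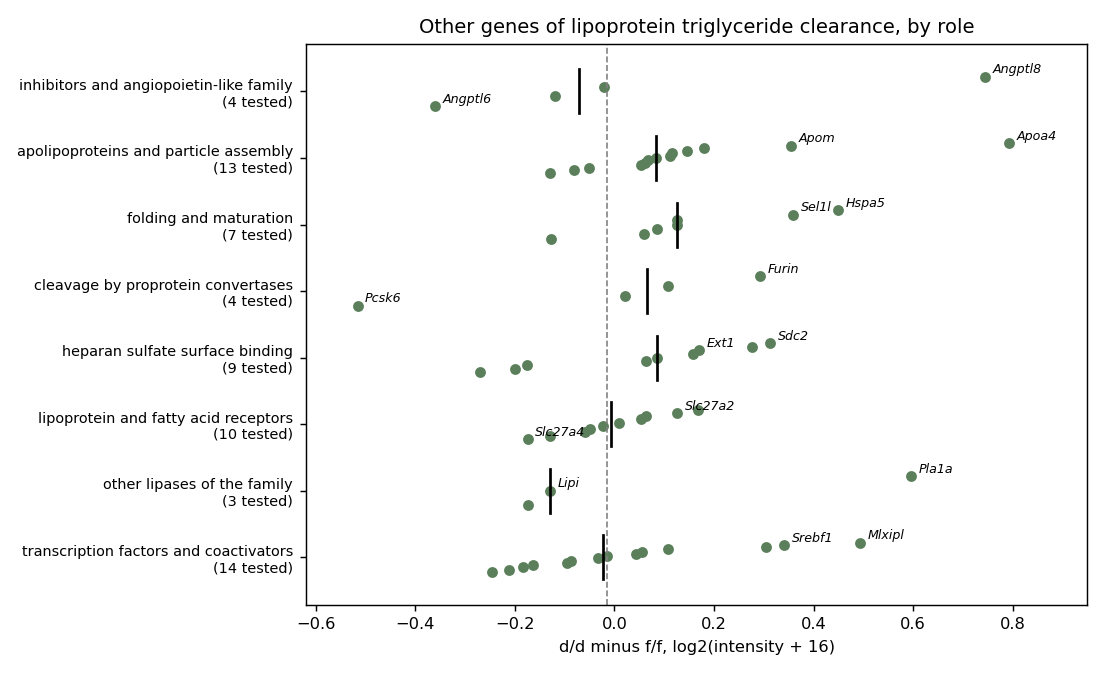
Difference d/d minus f/f of the 64 other pathway genes tested, by role, on the log2(intensity + 16) scale; black bars are the median of a role and the dashed line is the median of all genes tested (-0.01). The ends of the range are Pcsk6 at -0.52 and Apoa4 at 0.79.

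Among the angiopoietin-like family, 4 genes were tested, 1 with a positive and 3 with a negative difference. Angptl8, made by the liver on feeding, read 238, 149 and 463 in d/d livers, against 142, 139.2 and 160.2 in f/f livers. Its log2 difference of 0.74 ± 0.33 rested on d/d replicate 3, without which it was 0.34 (adjusted p = 0.638 in limma with all arrays). Angptl6 had a difference of -0.36 ± 0.11 (adjusted p = 0.408 in limma), with 96.5, 107 and 102 in d/d livers against 117, 137 and 159 in f/f livers.

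All 13 listed genes of apolipoproteins and particle assembly were tested, 10 with a positive and 3 with a negative difference. Apoa4, an apolipoprotein of liver and intestine that lies between Apoc3 and Apoa5 in the genome, read 8348, 11670.0 and 11940.0 in d/d livers, against 4553, 5711 and 8752 in f/f livers. Its difference of 0.79 ± 0.23 did not pass (adjusted p = 0.355 in limma), but without f/f replicate 3 it was 1.04 and passed (adjusted p = 0.0408 in limma). The suffix of this Apoa4 probe set marks probes that may match other transcripts. With all Apoa4 probe sets averaged the difference was 0.87. Apom, which carries sphingosine 1-phosphate on high density lipoproteins, had 0.35 ± 0.11 (adjusted p = 0.391 in limma).

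Of the 7 genes of folding and maturation, all tested, 6 had a positive and 1 a negative difference. Sel1l, an adaptor of the degradation machinery of the endoplasmic reticulum that lipoprotein lipase needs to leave that compartment, read 541, 600.2 and 606 in d/d livers, against 444, 473 and 439 in f/f livers. Its groups did not overlap, and its difference was 0.36 ± 0.10 (adjusted p = 0.348 in limma), but 0.17 with all its probe sets averaged. Hspa5, the chaperone BiP, had 0.45 ± 0.11 (adjusted p = 0.236 in limma), with means of 3772 ± 252 in d/d and 2806 ± 129 in f/f (SD, n = 3 each). With all its probe sets averaged, the difference of Hspa5 was 0.33.

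Proprotein convertases can cleave lipoprotein lipase, endothelial lipase and angiopoietin-like proteins. Pcsk6 read 300.5, 289 and 297 in d/d livers, against 474, 331 and 503 in f/f livers. Its difference was -0.52 ± 0.16 (adjusted p = 0.399 in limma), and -0.41 with f/f replicate 3 left out. Furin had 0.29 ± 0.20 (adjusted p = 0.801 in limma), 0.07 with f/f replicate 3 left out and 0.44 with f/f replicate 1 left out.

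Heparan sulfate proteoglycans hold lipases and remnants at cell surfaces. Of these 9 tested genes, Sdc2, a syndecan, had 0.31 ± 0.11 and Ext1, which extends the heparan sulfate chain, 0.17 ± 0.10 (adjusted p = 0.519 and 0.774 in limma). With their probe sets averaged, the differences were 0.23 for Sdc2 and 0.06 for Ext1. Of the 10 lipoprotein and fatty acid receptors and carriers tested, 5 were positive and 5 negative, in a range of -0.17 to 0.17. The lowest p-values were those of the fatty acid carriers Slc27a4 at -0.17 ± 0.11 and Slc27a2 at 0.13 ± 0.11 (adjusted p = 0.773 and 0.836 in limma). Without d/d replicate 2 Slc27a4 had -0.11. Slc27a2 had 0.06 without f/f replicate 2 and 0.08 without d/d replicate 1.

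Among other lipases of the same family, Pla1a, a phospholipase that acts on phosphatidylserine, read 605, 712 and 729 in d/d livers, against 456, 554 and 353 in f/f livers. It was higher on every d/d array, with a difference of 0.60 ± 0.17 (adjusted p = 0.348 in limma), and 0.42 with f/f replicate 3 left out. Lipi, near the dim cut, had -0.13 ± 0.11 (adjusted p = 0.835 in limma), -0.21 with f/f replicate 1 left out and -0.07 with f/f replicate 2 left out.

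Of the 14 transcription factors and coactivators tested, 6 had a positive and 8 a negative difference. Mlxipl, the carbohydrate response factor ChREBP, read 375, 404 and 429.9 in d/d livers, against 262, 274 and 307 in f/f livers. The groups did not overlap, and the difference of 0.49 ± 0.11 did not pass (adjusted p = 0.203 in limma). Srebf1, a driver of fatty acid synthesis genes, had 0.34 ± 0.14 (adjusted p = 0.589 in limma).

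The apolipoprotein genes of the set lie in gene clusters, and their neighbours were set beside them, a comparison added with the values known. The annotation (GRCm38.p6) orders Apoa1, Apoc3, Apoa4 and Apoa5 along 1 stretch of chromosome 9. Their differences were 0.05, 0.18, 0.79 and -0.19, so genes of 1 cluster lay on both sides of 0. Apoc4, next but 1 to Apoc2 on chromosome 7, had -0.05 ± 0.12 where Apoc2 had 0.51. The 2 nearest protein-coding genes on each side of Lpl, Csgalnact1, Ints10, Slc18a1 and Atp6v1b2, had -0.04, -0.07, -0.20 and -0.18. Over the whole set, 0 of 21 tested neighbours passed in limma and 1, Apoa4, had an unadjusted p under 0.05.

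Cell types other than hepatocytes could contribute Lpl RNA, above all macrophages, fat and muscle, and their markers were summed on each array. The 12 Kupffer cell and macrophage markers summed to 2799 to 3481 in d/d livers, against 3241 to 4415 in f/f livers, and 11 of the 12 had a negative difference, with 0 past the threshold in limma and 2 with an unadjusted p under 0.05. The ratio of d/d to f/f was 0.807, and 0.870 without f/f replicate 3, and the ranges of the 2 genotypes overlapped. Marco, the 1 marker with a positive difference, had 0.22 ± 0.10. The most abundant macrophage marker, Cd5l, had a normalized level of 813 in d/d and 1025 in f/f. The 5 adipocyte markers summed to 248 to 272 in d/d livers, against 269 to 362 in f/f livers, and the defining markers Adipoq and Lep were under the dim cut, at mean levels of 24.3 for Adipoq and 24.9 for Lep over all arrays. The most abundant adipocyte marker, Plin4, had 91.7 in d/d and 107.5 in f/f. The d/d to f/f ratio of the adipocyte sum was 0.827, and 0.898 without f/f replicate 3. The 7 skeletal muscle markers summed to 428 to 548 in d/d livers, against 441 to 606 in f/f livers, led by Ckm at 172 in d/d and 193 in f/f. The d/d to f/f ratio of the muscle sum was 0.985, but 1.09 without f/f replicate 3, the array with the sum of 606. Of the muscle markers, Tnnt3 and Myl1 were under the dim cut, at mean levels of 30.5 and 26.2 over all arrays. Acta1, Myh4 and Mylpf were just over it, at 54.0, 54.1 and 49.5, so this sum says little about muscle content.

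**Figure D5:**
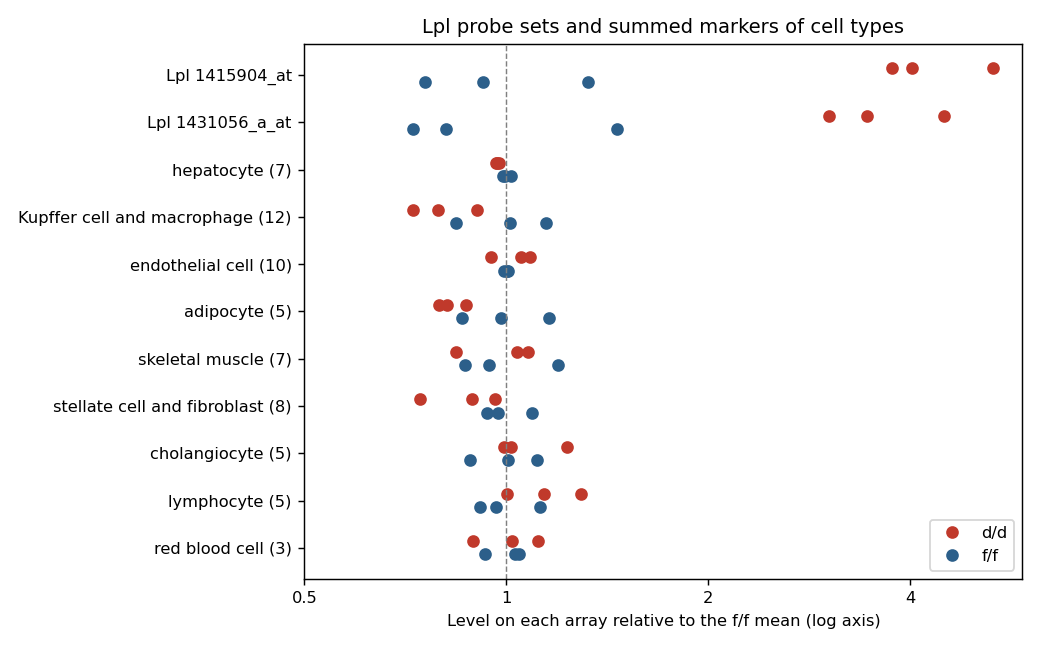
Normalized level on each array relative to the f/f mean, on a log axis, for the Lpl probe sets and for summed markers of 9 cell types (number of genes in brackets), d/d above f/f in each row. The d/d arrays of Lpl lie far to the right of the f/f arrays, while the d/d to f/f ratios of the marker sums run from 0.807 to 1.14.

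Of the other lists, the 10 endothelial markers, led by Clec4g, had a d/d to f/f ratio of 1.03, the 8 stellate cell and fibroblast markers, led by Dcn, 0.866, the 5 cholangiocyte markers, led by Epcam, 1.08, the 5 lymphocyte markers 1.14, and the 3 red blood cell markers, led by Alas2, 1.01. The lymphocyte ratio rested on its most abundant marker, Ms4a1, at a normalized level of 148 in d/d and 69.8 in f/f, since the other 2 tested had negative differences. In each list 0 genes passed in limma, and of the 5 cholangiocyte markers 2 were over the dim cut and tested. The 7 hepatocyte markers had 0.969, and 0.980 on the values as deposited. Apoa1 was the 1 of them with a positive difference, at 0.05 ± 0.10. Tat had -0.39 ± 0.15 and Cyp2e1 -0.15 ± 0.10, both lower on every d/d array than on any f/f array. Quantile normalization gave Alb, the most abundant hepatocyte marker, the same level of 34631 in both genotypes. The normalized sum therefore cannot show a change in Alb. The part of these cell types in the Lpl difference was not tested, since marker sums do not show which cells hold Lpl RNA.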

How the data were processed

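Liver RNA was measured on 3 Affymetrix arrays of Mig-6 d/d and 3 of Mig-6 f/f mice, per the labels. The authors deposited linear intensities for 45101 probe sets; their summarization, background correction, scaling and genome build are not given in the sources used here. The platform annotation gave 1 symbol to 34945 probe sets, of which 34741 were found in the gene table, several to 932 and none to 9160, besides 64 control probe sets.

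Intensities were quantile normalized as log2(intensity + 16), since array medians differed by up to 0.185. The probe set with the highest mean stood for a gene, and those in the lowest 40% by mean, an intensity of 48.3, were left out. The genotypes were compared over 13718 genes with lmFit and eBayes of limma 3.58.1 (R 4.3.3), with Benjamini-Hochberg adjustment and a threshold of 0.05. Standard errors of the set's probe sets came from the same fit on all 34945 named probe sets. The fit was tested on simulated data. The number of arrays limits the precision.

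The genes of the set and all lists were chosen with earlier results of these data known. Named were the set, Errfi1, up to 2 pathway genes per role by lowest p, the most abundant marker of each list and 5 genes near Lpl in profile. Marker levels are normalized intensities. Promoters came from RefSeq. Alternatives changed the normalization, pseudocount, dim filter, probe set rule, eBayes settings, array weights, replicate block and threshold, or left out 1 array. No 2 arrays held identical values.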

Additional observations from a re-analysis of the deposited data

How the results depend on the processing

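The number of genes past the threshold was 13, and the number of the set's genes 1. The 2 counts were 21 and 1 with an intensity trend and robust prior in eBayes, 215 and 2 with arrays weighted by quality (0.178 for f/f replicate 3), and 21 and 1 at an adjusted p of 0.1. With the replicate number as a block, 6 genes and 0 of the set passed, with Lpl at 2.07 as before. Deviations of same-numbered arrays correlated at -0.0033, -0.14 and -0.47. With 3 arrays per genotype these values cannot show whether the numbers pair the arrays, and the labels do not say. Leaving out 1 array gave 4 to 91 genes and 0 to 1 of the set. The 91 came without f/f replicate 3, the 4 without d/d replicate 1. Over 126 refits of the set's genes, 1 turned sign, Gpihbp1, at 0.0869 without d/d replicate 2, in a range of -0.148 to 0.0869 with 1 array left out. Lpl was not among the genes called in 5, the block and 4 fits with 1 array left out. Without f/f replicate 2 or f/f replicate 3, Lpl stayed among the genes called (log2 difference 2.27 and 1.90). Why the call of Lpl changed between settings was not tested. With array weights the 2 genes of the set were Lpl (1.96) and Apoc2 (0.48), which is no test of them, since this contrast chose the set. Apoa4 (0.94), Hspa5 (0.45) and Mlxipl (0.52) also passed there. Lipg has no value with the lowest 60% left out or with probe sets averaged.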
